A study of Mus musculus with 20 samples.

Results

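The catalogue of long intergenic non-coding RNAs deposited with the study carries the name mouse NONCODE lincRNA. Isolated lincRNA loci are its loci that have no other catalogued locus nearby. They were taken as the loci on chromosomes 1 to 19 whose span is at most 100000 bp and whose nearest other locus, on either strand, begins or ends more than 100000 bases away. There were 2129 of them among 27637 loci on these chromosomes, a share of 7.70%, and among 29286 loci in the whole table. The choice used positions only and no measured RNA level. The remaining 25508 loci comprised 11489 that lay less than 10 kb from another locus, 13994 at 10 to 100 kb, and 25 that lay farther off but spanned more than 100 kb.

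Long intergenic non-coding RNAs are transcripts without a known protein product that come from between protein-coding genes. Most are transcribed by RNA polymerase II, capped and polyadenylated, and many are spliced, usually into few exons. Many are found at low level in few tissues, and a few act on chromatin or on genes beside them. Loci far from other genes lie in what is called a gene desert, and the coding genes that border deserts are often developmental or neuronal genes.

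The study sequenced RNA that came down with newly replicated DNA from wild-type mouse embryonic stem cells (ESC) and from NIH3T3 cells, an immortalised mouse fibroblast line. Cells took up the thymidine analogue EdU for 10 min, and a click reaction joined biotin to it for capture. Each cell type had 5 groups of 2 libraries, 20 in all: no click (DMSO in place of biotin azide), click normal, click HU, click chase and click protease. The HU, chase and protease groups carried hydroxyurea, which stalls replication forks, at 4 mM for 4 h, and the no click and normal groups did not. In addition, every NIH3T3 group was synchronised by 15 h in 2 mM thymidine followed by a release of 2.5 h. What the chase and the protease step consisted of is not detailed in the labels, and neither is whether replicates were cultured separately. The table analysed gives exon positions, strand and identifiers on the mouse build mm9, and no value per library. RNA levels, read depth and differences between the groups of libraries were therefore not analysed here, and the comparisons below are between loci.

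To show what lies at the starts of genes matched to isolated loci, 4 promoter sequences are printed 5′ to 3′, from 250 bases before to 50 bases after the annotated start, with each CpG in capitals. They come from RefSeq on GRCm38.p6, for isolated loci that were matched by exon structure to a gene of the GENCODE annotation and whose matched gene starts within 1 kb of the RefSeq start. The start of the locus itself, on another build, was not compared with it. The first pair belongs to the matched loci with the largest distances to another locus, and the last pair to those with the most CpG. 4930440C22Rik (chr1:94797192-94797491, plus strand) belongs to NONMMUG001418, a 4-exon locus 664.7 kb from any other. Gm20362 (chr6:79031792-79032091, plus strand) belongs to NONMMUG035724, a 3-exon locus 432.2 kb from any other. Gm15912 (chr13:74009305-74009604, minus strand) and Gm15908 (chr13:34652673-34652972, plus strand) belong to NONMMUG011390 and NONMMUG010670, whose nearest other loci were 122.3 and 117.0 kb away.
4930440C22Rik: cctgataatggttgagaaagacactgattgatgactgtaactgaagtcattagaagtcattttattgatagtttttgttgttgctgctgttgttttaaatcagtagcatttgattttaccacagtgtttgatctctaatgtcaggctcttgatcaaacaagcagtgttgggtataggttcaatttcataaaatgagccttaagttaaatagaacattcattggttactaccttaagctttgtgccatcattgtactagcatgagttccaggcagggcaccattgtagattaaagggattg
Gm20362: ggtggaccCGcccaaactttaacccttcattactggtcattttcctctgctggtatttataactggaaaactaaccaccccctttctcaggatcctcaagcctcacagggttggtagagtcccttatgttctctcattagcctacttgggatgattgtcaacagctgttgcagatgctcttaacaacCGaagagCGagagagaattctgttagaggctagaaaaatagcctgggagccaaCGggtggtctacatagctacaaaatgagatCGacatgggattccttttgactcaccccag
Gm15912: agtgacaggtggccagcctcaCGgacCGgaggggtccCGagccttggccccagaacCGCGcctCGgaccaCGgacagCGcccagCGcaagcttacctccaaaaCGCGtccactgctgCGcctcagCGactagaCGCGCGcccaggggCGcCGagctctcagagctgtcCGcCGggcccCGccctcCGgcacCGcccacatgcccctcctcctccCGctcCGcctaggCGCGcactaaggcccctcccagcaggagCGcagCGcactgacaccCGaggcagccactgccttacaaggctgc
Gm15908: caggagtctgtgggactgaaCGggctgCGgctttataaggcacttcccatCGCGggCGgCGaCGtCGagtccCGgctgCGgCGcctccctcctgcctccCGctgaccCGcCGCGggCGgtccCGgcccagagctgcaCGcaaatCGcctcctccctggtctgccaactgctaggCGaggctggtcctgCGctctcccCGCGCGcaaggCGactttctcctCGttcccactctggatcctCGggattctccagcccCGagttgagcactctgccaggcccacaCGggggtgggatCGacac
The first holds 0 CpG at a GC content of 36% and the second 5 CpG at 46.7%. Gm15912 and Gm15908 hold 30 CpG each, at 71.7% and 68.7% GC. The nearest protein-coding genes of the first pair lay 511.2 kb (Fam174a) and 563.2 kb (Reg3g) away, whereas Gm15912 began 52 bases from Tppp and Gm15908 overlapped Pxdc1.

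The distance from an isolated locus to its nearest neighbour ranged from 100023 to 1701633 bases. The median was 147139 bases, with quartiles of 118596 and 199768, against a median of 12481 bases for the remaining loci. The limit fixes this gap, so it describes the loci and is no finding. A distance over 200 kb was found for 532 isolated loci, over 500 kb for 57 and over 1 Mb for 5. The nearest neighbour was on the opposite strand for 1005 of the 2129. It was itself isolated for 746, a count that the rule favours because such a pair shares its wide gap. The loci closest to the limit inside it were NONMMUG036722 at 100023 bases, NONMMUG019784 at 100048 and NONMMUG000060 at 100089. Just outside it lay NONMMUG019298 at 99961 bases, NONMMUG026101 at 99977 and NONMMUG008398 at 99982. The 3 loci inside had 2, 1 and 3 exons, and the 3 outside had 1, 5 and 1, so single-exon and spliced loci stood on both sides.

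Many isolated loci stood in a row. Consecutive isolated loci share a gap over 100 kb, so the rule itself favours such runs, and the counts are a description. Read along each chromosome, the 2129 loci formed 1344 runs of consecutive isolated loci, of which 860 were a single locus. The other 484 runs held 1269 isolated loci (59.6%), and 74 runs held 4 or more. The longest runs held 7 loci each. The widest of them covered 3.40 Mb of chromosome 6 (mm9, 73536103 to 76939641), and 3 of its 7 loci were spliced. Another covered 3.13 Mb of chromosome 1 (47490668 to 50616919), with 2 of 7 loci spliced.

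The share of isolated loci differed between chromosomes. Chromosome 1 had the highest, 10.8% (200 of 1849 loci, exact 95% Clopper-Pearson interval 9.44 to 12.3%), followed by chromosome 7 at 10.6% (155 of 1468, 9.03 to 12.2%). Chromosome 11 had the lowest, 4.78% (85 of 1780, 3.83 to 5.87%), followed by chromosome 4 at 5.78% (116 of 2008, 4.80 to 6.89%). The intervals of the 2 highest do not reach those of the 2 lowest. All such intervals cover counting error only, and loci are not independent of their neighbours. Per megabase, isolated loci were more even, from 0.700 on chromosome 13 to 1.04 on chromosome 7. Across the 19 chromosomes the share fell where loci were dense: Pearson's r with loci per megabase was -0.893 and Spearman's rho -0.895. Both quantities count the same loci, and closer packing leaves fewer wide gaps, so this correlation is a description.

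**Figure D1:**
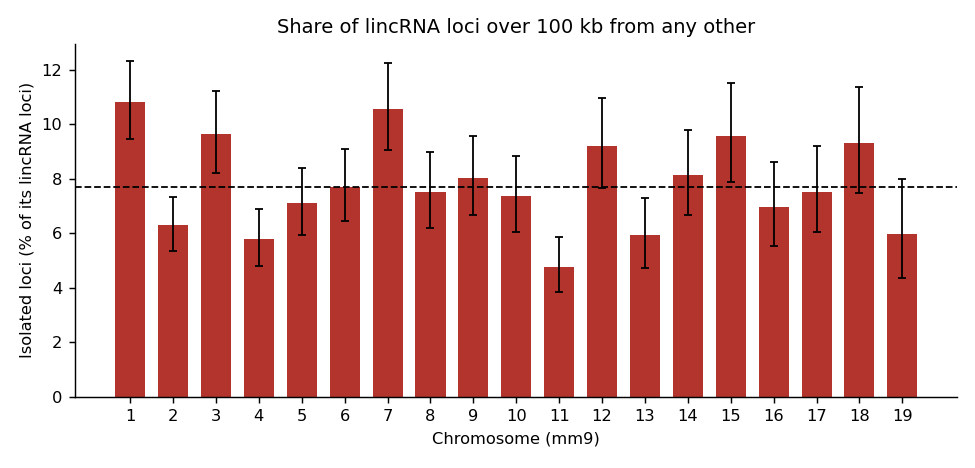
Bars show the percentage of each chromosome's lincRNA loci that were isolated, with exact 95% intervals, and the dashed line the 7.70% over all 19 chromosomes. Chromosomes 1 and 7 stand highest and chromosome 11 lowest.

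The 2129 loci were then compared with the 25508 remaining loci for exon structure. The choice of loci used exon structure through the span. The limit on span bounds the introns of isolated loci. It puts the 25 far-off wide loci, all spliced and 22 of them with 3 or more exons, among the remaining ones. Distance was measured between the ends of spans, so a wider locus also leaves narrower gaps. Loci on one chromosome share its density and its assembly, so the difference was formed within each of the 19 chromosomes and its sign permuted over chromosomes. Isolated loci had fewer transcript variants and shorter transcripts than the remaining loci, while the share with an intron was close to theirs and a difference was not called. Values below are the mean of the 19 differences ± SD, and p-values are from 2-sided sign-flip permutation tests with 100000 draws, adjusted by the Benjamini-Hochberg method over 9 differences.

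Alternative transcripts were rarer at isolated loci. Of the 2129, 247 (11.6%, 10.3 to 13.0%) had more than 1 transcript, against 4326 of the remaining loci (16.5 to 17.4%). The within-chromosome difference was -5.73 ± 3.14 percentage points (n = 19 chromosomes, permutation p = 2e-05, the smallest these draws can give, adjusted p = 0.00018). It was negative on 18 of 19 chromosomes, from -11.8 to 1.36 points, and chromosome 9 was the exception. In all, 1882 isolated loci had a single transcript and 32 had 5 or more.

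Transcripts of isolated loci were also shorter. The longest transcript of an isolated locus had a median of 1112 nt (quartiles 522 and 2363), against 1370.5 nt (646 and 2431) for the remaining loci. On the log2 scale the difference of medians was -0.29 ± 0.24 (n = 19, permutation test, adjusted p = 0.00072), and it was negative on 17 of 19 chromosomes. The upper quartiles lay close together and the lower quartiles farther apart. The smallest isolated medians were on chromosome 4 (702 nt) and chromosome 2 (782 nt), and the largest was on chromosome 19 (1777 nt). Chromosomes 5 and 19 were those where the isolated median was above the remaining one.

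The shorter length was seen for spliced and for unspliced loci. Among the 984 spliced isolated loci the median was 735 nt, against 917 nt for 11976 remaining ones, a log2 difference of -0.26 ± 0.24 (lower on 18 of 19 chromosomes, permutation test, adjusted p = 0.00112). Among the 1145 single-exon isolated loci it was 1603 nt, against 1796 nt for 13532 remaining ones, a log2 difference of -0.21 ± 0.27 (lower on 16 of 19, permutation test, adjusted p = 0.00112). By these medians, the longest transcript of single-exon loci was longer than that of spliced loci, among isolated and remaining loci alike. The longest transcript of a spliced locus can itself be unspliced. None of these differences in length passed the threshold for the 532 loci more than 200 kb from another (adjusted p = 0.324 to 0.346, permutation tests), and that in transcript number did not either (adjusted p = 0.0954).

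The share of spliced loci, those with a transcript of 2 or more exons, was 46.2% (44.1 to 48.4%) for isolated loci and 46.9% (46.3 to 47.6%) for the remaining ones. The difference of -1.06 ± 5.99 points was positive on 8 and negative on 11 chromosomes (permutation test, adjusted p = 0.501). Loci with 3 or more exons made up 422 of the 2129 (19.8%, 18.1 to 21.6%) and 17.9% (17.4 to 18.4%) of the remaining loci. That difference was 2.15 ± 4.06 points, positive on 12 of 19 chromosomes, and its adjusted p of 0.0617 (permutation test) missed the threshold of 0.05. Without chromosome 1, 7, 15 or 19 it passed (adjusted p = 0.024 to 0.0472, permutation tests), and it also passed without the limit on span (2.92 points, adjusted p = 0.00961, permutation test). The longest intron of a spliced isolated locus had a median of 2568.5 bases against 2231, a log2 difference of 0.31 ± 0.69 (12 of 19 positive, permutation test, adjusted p = 0.105). Without the limit on span the intron difference was 0.41 (permutation test, adjusted p = 0.0207). The plus strand held 50.8% of isolated and 49.0% of remaining loci (difference 1.15 ± 5.17 points, permutation test, adjusted p = 0.441).

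**Figure D2:**
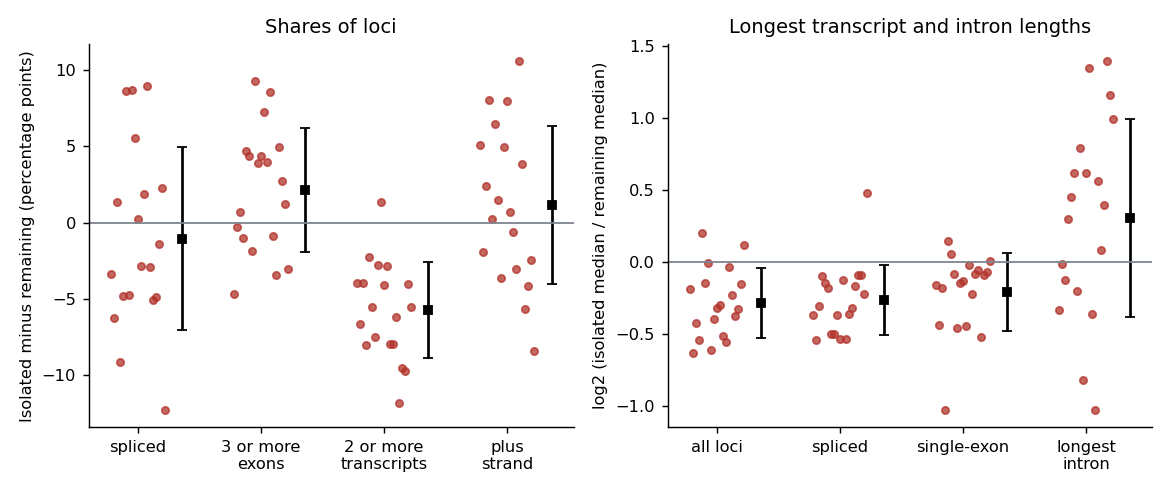
Each red point is 1 of 19 chromosomes and gives the isolated minus the remaining loci, in percentage points (left) or as log2 of the ratio of medians (right), and black squares with bars are the mean ± SD. The shares of loci with 2 or more transcripts lie below 0 on 18 chromosomes, whereas those of spliced loci scatter around 0.

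The remaining loci are themselves a mixture, and the comparison of splicing depended on which of them were used. Of 3423 remaining loci that overlapped or touched another, 70.2% were spliced, 34.2% had 3 or more exons and 30.1% had more than 1 transcript. At less than 10 kb from another locus without touching it these shares were 44.2, 15.4 and 16.5%, and at 10 to 100 kb they were 42.8, 15.2 and 14.0%. Against the 13994 loci at 10 to 100 kb alone, isolated loci had more loci with 3 or more exons, by 4.88 ± 4.15 points (16 of 19 chromosomes, permutation test, adjusted p = 0.00153). Their longest introns were longer on the log2 scale by 0.56 ± 0.68 (14 of 19, permutation test, adjusted p = 0.00576). The spliced share was then 3.15 ± 6.75 points higher, with an adjusted p of 0.0734 (permutation test). More than 1 transcript was still less frequent, by -2.70 ± 3.24 points (16 of 19 lower, permutation test, adjusted p = 0.00576), and transcripts were still shorter, by -0.27 ± 0.25 on the log2 scale (16 of 19 lower, permutation test, adjusted p = 0.00153). Where neighbours on the opposite strand were disregarded, which gave 5792 isolated loci, the spliced share was 7.44 ± 4.18 points higher than in the remaining loci on all 19 chromosomes (permutation test, adjusted p = 3.6e-05). More than 1 transcript was then less frequent by -1.34 ± 2.11 points (15 of 19 lower, permutation test, adjusted p = 0.0184), a smaller difference than with neighbours on both strands.

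Among the isolated loci the spliced share was similar in each class of distance. It was 46.4% of 1105 loci at 100 to 150 kb, 46.1% of 492 at 150 to 200 kb, 45.5% of 321 at 200 to 300 kb and 46.4% of 211 beyond 300 kb. The shares with 3 or more exons were 18.6, 19.7, 22.4 and 22.7% in the same order, with overlapping intervals. Those with more than 1 transcript were 10.3, 12.6, 15.0 and 10.9%, and the median lengths of the longest transcript were 1094, 1108, 1197 and 1033 nt. Neither of these last series ran in one direction with distance.

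**Figure D3:**
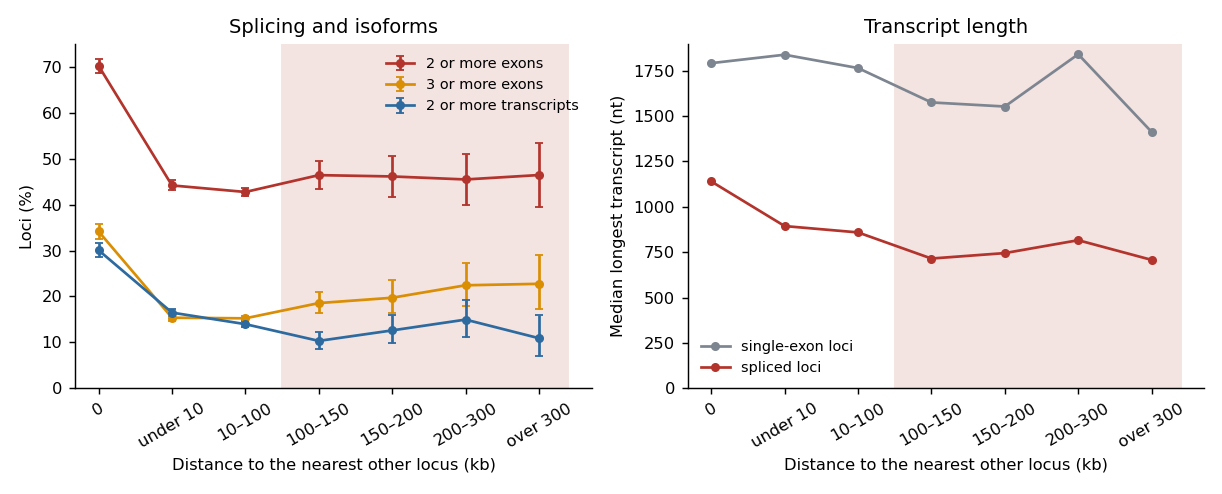
Left, percentages of loci with exact 95% intervals, and right, median length of the longest transcript in nt, by distance to the nearest other locus in kb (0 means overlapping or touching), with the isolated loci shaded. The spliced share falls from 70.2% at 0 to 42.8% at 10 to 100 kb and is 45.5 to 46.4% in the 4 isolated classes.

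The isolated loci at the extremes differed widely in structure. NONMMUG026502 (chromosome 3, mm9 47067000 to 47165402, minus strand) had the largest distance to another locus, 1701633 bases. It had 2 exons parted by an intron of 95680 bases, and its transcript was 2723 nt long. NONMMUG032531 (chromosome 5, 62155493 to 62181070, minus strand) came next at 1302450 bases, with 3 exons and 641 nt. NONMMUG009115 (chromosome 12, 64173832 to 64174128, minus strand) was the third at 1081037 bases and was a single exon of 297 nt. So the most remote loci include a wide spliced locus as well as a very short unspliced one.

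The longest transcript belonged to NONMMUG026094 on chromosome 3 (14361747 to 14377592, plus strand), with 14357 nt in a single exon. The locus had 4 transcripts of up to 4 exons, and its spliced structure, not the single long exon, matched Gm6300. GENCODE lists Gm6300 as an unprocessed pseudogene, that is, a duplicated copy of a gene that no longer codes. NONMMUG009149 on chromosome 12 was a single exon of 12530 nt, and NONMMUG014769 on chromosome 15 a transcript of 11804 nt with 3 exons. NONMMUG018873 on chromosome 17 (74404760 to 74429620, minus strand) carried 110 transcripts of up to 5 exons over 24.9 kb and matched CT025731.4. The next highest number was 26, at NONMMUG026451 on chromosome 3. It was followed by 8 at NONMMUG000083, NONMMUG016679 and NONMMUG039449. Thus 1 locus held 110 of the 2696 transcripts of all isolated loci.

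Most exons in 1 transcript were found at NONMMUG008505 on chromosome 12, with 12 exons over 84.9 kb (matched to Gm38407). NONMMUG028554 on chromosome 4 had 11 over 40.6 kb (Gm11820), and several loci had 9, the first being NONMMUG004395 on chromosome 10 (Gm31592). The nearest other lncRNA gene to Gm31592 in GENCODE was Rmst, a lncRNA known from neural differentiation, 117.5 kb away.

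**Figure D4:**
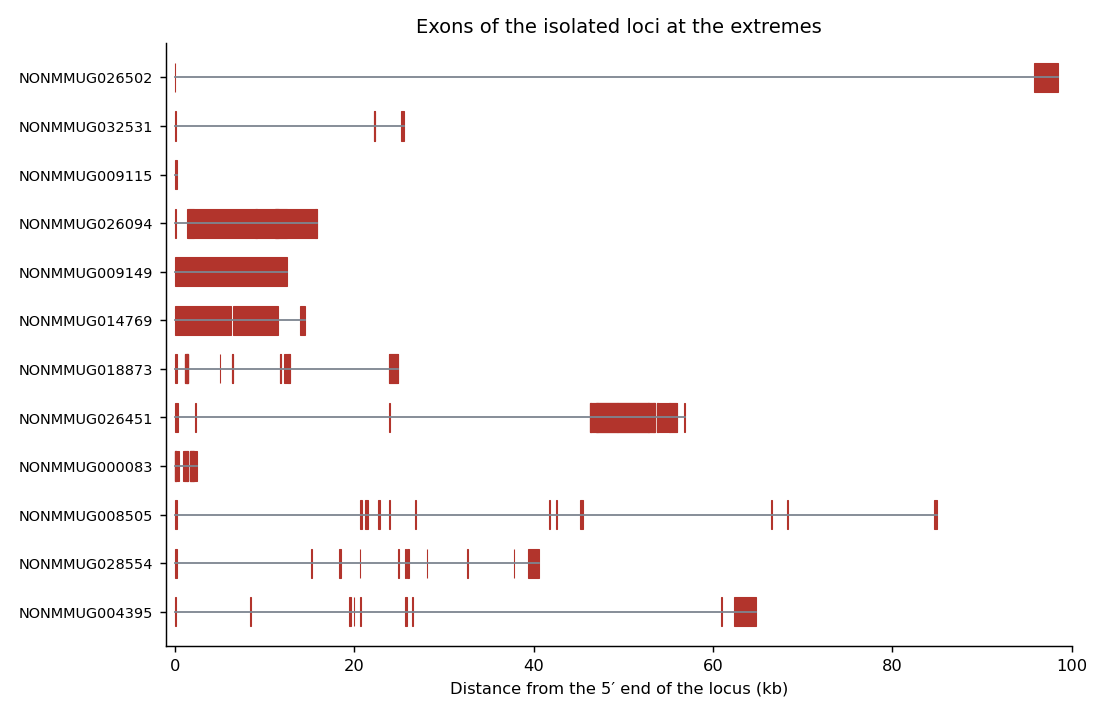
Exons (red boxes, all transcripts of a locus together) of 12 isolated loci chosen by largest distance, longest transcript, most transcripts and most exons, 3 each from the top, drawn to scale in kb from the 5′ end. NONMMUG026502 has an intron of 95.7 kb, and NONMMUG009149 has none.

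Loci with 3 or more exons could be matched to GENCODE on GRCm38 by the lengths of consecutive introns and exons, without converting coordinates. Of the 422 such isolated loci, 215 matched (50.9%, 46.1 to 55.8%), against 53.9% (52.4 to 55.3%) of 4562 remaining loci. The difference was -1.39 ± 10.3 points and was positive on 9 of 19 chromosomes (permutation test, adjusted p = 0.559). Of the 213 isolated loci matched to 1 gene, 145 (68.1%) were lincRNA genes in GENCODE, against 60.5% of 2441 remaining ones. Pseudogenes made up 28 (13.1% against 9.14%), antisense genes 20 (9.39% against 13.4%) and processed transcripts 5 (2.35% against 8.85%). These shares were not tested. Isolated loci of 1 or 2 exons, and those with 3 or more that found no match, do not enter what follows.

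The name lincRNA did not hold for every match. Protein-coding genes accounted for 12 of the 213 (5.63%), against 144 of 2441 remaining ones (5.90%). Among the 12 were Il1rap, a subunit of interleukin-1 family receptors, Abi3bp, an extracellular matrix protein, and the odorant receptor Olfr1211. Of the 201 matched to non-coding genes, 28 (13.9%, 9.46 to 19.5%) overlapped a protein-coding gene on either strand in GENCODE. For the remaining loci it was 401 of 2297 (17.5%, 15.9 to 19.1%), so neither share was higher at isolated loci. The pseudogenes included Cts8-ps, of the cathepsin family, Zp4-ps, of the egg coat proteins, and Cyp2c53-ps, of the cytochrome P450 enzymes. A run of 3 pseudogene matches on chromosome 7 (Gm7651, Gm7230 and Gm3585) and Gm45351 had vomeronasal receptor genes, which serve pheromone sensing, as nearest coding genes. Matching used lengths and no position, so a match may fall on a similar copy elsewhere on the chromosome. Gm7230 and Gm3585 lay 601.4 and 1392 kb from Gm45415 in GENCODE, while their loci lay 227.9 kb apart in the study's table.

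Isolation from other catalogued loci went with distance from coding genes. Over the 201 isolated loci matched to non-coding genes, the nearest protein-coding gene was a median of 74.9 kb away (quartiles 12.2 and 255.6 kb), against 20.0 kb (0.925 and 82.6 kb) for 2297 remaining loci. It was more than 100 kb away for 91 of them (45.3%, 38.3 to 52.4%), against 21.5% (19.8 to 23.2%). It was more than 500 kb away for 24 (11.9%, 7.80 to 17.2%), against 3.27% (2.58 to 4.08%). At the other end, 45 (22.4%, 16.8 to 28.8%) overlapped a coding gene or lay within 10 kb of one, against 39.9% (37.9 to 42.0%). These intervals do not overlap between the groups, but no test over chromosomes was made of them.

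The matches also show how far isolation holds in a second annotation. Another GENCODE long non-coding gene was more than 100 kb away for 139 of the 201 (69.2%, 62.3 to 75.5%), against 22.9% (21.2 to 24.6%) of the remaining matches. The rule itself favours this contrast. It chose loci without another catalogued locus within 100 kb, and some GENCODE neighbours, such as Rmst beside Gm31592, are themselves catalogued loci. The contrast is therefore a description. For 21 of the 201 (10.4%, 6.58 to 15.5%) another GENCODE long non-coding gene overlapped or lay within 10 kb. These 21 loci are isolated in the study's table but lie close to another long non-coding gene in GENCODE. All of the 201 outside the 139 have such a gene within 100 kb in GENCODE. That class is wider than lincRNA and includes antisense genes, intronic genes and processed transcripts. Distances there were taken between the spans of GENCODE genes. A near gene in GENCODE is therefore not always a lincRNA that the study's table lacks. The most remote match in the study's table was NONMMUG026077 (Gm10745, 5 exons, 1523 nt) on chromosome 3, with 862.6 kb to the nearest catalogued locus. In GENCODE its nearest coding gene, Snx16, lay 1383 kb away and its nearest other long non-coding gene 1048 kb away.

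**Figure D5:**
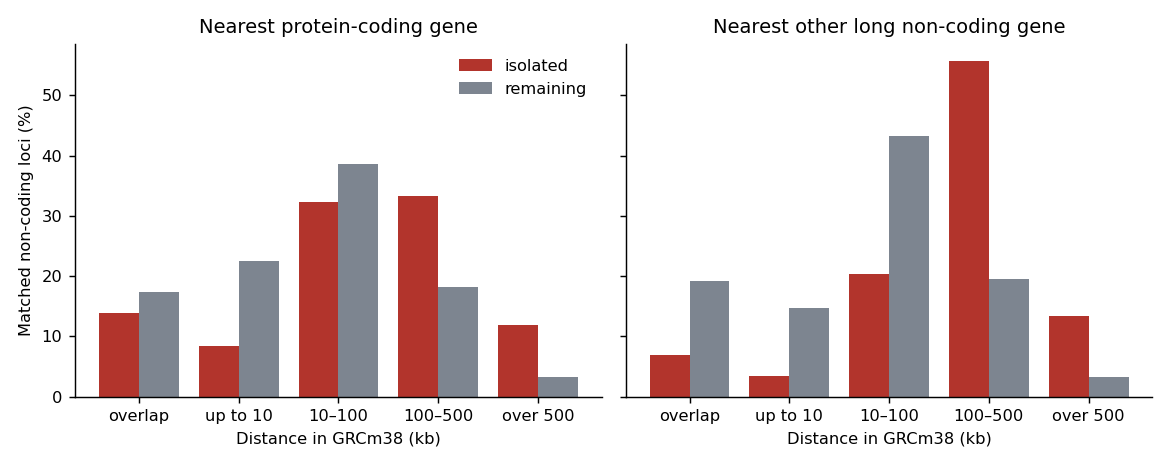
Bars give the percentage of matched non-coding loci (201 isolated, red, and 2297 remaining, grey) by distance in kb to the nearest protein-coding gene (left) and to the nearest other long non-coding gene (right) in GENCODE. On the left, 45.3% of the isolated and 21.5% of the remaining loci fall in the 2 classes beyond 100 kb.

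Listed neuronal guidance and adhesion genes, which steer axons and hold synapses together, were the nearest coding gene of 13 of the 201 isolated loci (6.47%, 3.49 to 10.8%). For the remaining loci the number was 59 of 2297 (2.57%, 1.96 to 3.30%), and the list of 82 genes found made up 0.394% of all 20807 protein-coding genes. A share of all genes is not the share to expect among nearest genes, for this list or for those below. The remaining loci are the closer comparison. Tenm2, a teneurin of synaptic contacts, was nearest to Gm12128 at 423.0 kb and to Gm12130 at 1257 kb. Dcc, the netrin receptor of growing axons, was nearest to AC134546.1 at 339.2 kb and to AC139348.1 at 557.8 kb. Cadherin and protocadherin genes were nearest to 4930557F08Rik (Cdh9, 905.3 kb), 1600027J07Rik (Cdh11, 558.2 kb) and Gm32455 (Pcdh17, 368.3 kb).

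Contactin genes, which code for adhesion proteins of axons, were nearest to Gm19757 (Cntn4, 185.0 kb) and Gm9871 (Cntn3, 360.7 kb). The synaptic adhesion genes Lrrc4c, Lrfn5 and Lrfn2 were nearest to Gm13799, Gm7745 and 1700008K24Rik, at 477.6, 168.5 and 14.7 kb. Gm15606 overlapped Opcml, a cell adhesion gene of neurons, and is listed as sense intronic. Of these 13 loci, 11 thus lay more than 100 kb from the gene and 1 overlapped it. Because Tenm2 and Dcc count 2 loci each, the 13 loci stand for 11 genes. The choice of list was made with earlier results of these data known, and no test of its share was made.

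Genes on a chosen list of developmental transcription factors were nearest to 3 of the 201 (1.49%, 0.309 to 4.30%). For the remaining loci it was 74 of 2297 (3.22%, 2.54 to 4.03%). The 103 genes found of this list made up 0.495% of all protein-coding genes. The 3 were Zfhx3 (57.6 kb from 5033426E14Rik), Sox11 (255.6 kb from Gm4166) and Zeb2 (1302 kb from Gm13470), all of which regulate transcription in the developing nervous system among other tissues. The list is not complete: Sox14, Runx1 and Nfib, nearest to 4930519F24Rik, Gm49723 and Gm12914, are not on it. Unlisted genes were counted for neither group, so these shares cover the list and not the whole class of genes. Odorant and pheromone receptor genes were nearest to 4 of the 201 (1.99%, 0.545 to 5.02%), against 28 (1.22%, 0.811 to 1.76%), and such genes made up 7.07% of all protein-coding genes. All 4 were the pseudogene matches on chromosome 7 named above, with the same limit on their matching. For both lists the intervals of isolated and remaining loci overlap.

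Of 57 listed well-known long non-coding RNAs, 26 were matched on these chromosomes and none of them was isolated. Isolated loci made up 7.70% of all loci there, so few of 26 would be isolated at that share, and the absence was not tested. The list held other Snhg and Platr genes, such as Snhg1 and Platr3, but not those named below. A few isolated loci not on that list had names of their own. NONMMUG000083 matched Snhg6, a host gene of small nucleolar RNAs, with 8 transcripts of up to 5 exons over 2.46 kb of chromosome 1 (9931764 to 9934218, minus strand). In GENCODE, Snhg6 overlapped the coding gene Mcmdc2. NONMMUG003181 matched Platr6 and NONMMUG005825 matched Platr13, 2 of the pluripotency-associated transcripts named for their expression in ESC. Platr6 had 5 exons, lay 195.8 kb from the nearest other locus and 37.3 kb from Sgk1, a serum-regulated kinase gene. Platr13 had 3 exons and 375 nt, and lay 157.0 kb from another locus and 463.5 kb from Ccng1, which codes for cyclin G1.

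Promoters of the matched isolated loci held few CpG. RefSeq gave a promoter for 123 of the 201 isolated and 1331 of the 2297 remaining matches. The RefSeq start lay within 1 kb of the GENCODE start for 106 of the 123 and 1104 of the 1331, so the others may stand at another start of the gene. The median was 3 CpG in 300 bases at isolated loci (quartiles 2 and 5), 4 at remaining loci (2 and 8) and 7 over all 32851 promoters of the RefSeq table. Median GC content was 46.7, 48.7 and 52.7% in the same order. At least 10 CpG were present at 13 isolated promoters (10.6%), against 19.5% of remaining and 43.5% of all promoters.

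Split by distance to a coding gene in a way chosen after the values were seen, the CpG-rich isolated promoters lay mostly beside coding genes. Of 21 isolated promoters whose matched gene overlapped or lay within 1 kb of a coding gene, 8 had at least 10 CpG (38.1%, against 40.5% of 321 remaining ones). At 1 to 100 kb it was 3 of 42 (7.14%, against 15.3% of 691), and beyond 100 kb it was 2 of 60 (3.33%, against 7.21% of 319). Beside Gm15912 and Gm15908, printed above, they included Gm26633 (23 CpG, 159 bases from Acan) and 2210406O10Rik (19 CpG, 144 bases from Grpel1). The exceptions beyond 100 kb were 4930568E12Rik (15 CpG, 136748 bases from Jrkl) and Gm34585 (12 CpG, 243303 bases from Edil3).

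For 2 core promoter motifs, searched on both strands as TATAAA and GGGCGG, the matches were as follows. TATAAA was found in 24 of the 123 isolated promoters (19.5%), in 16.1% of remaining and in 13.6% of all promoters. GGGCGG was found in 12 (9.76%), in 16.9% and in 35.7%. Of the printed promoters, Gm20362 holds both, Gm15908 holds both, Gm15912 holds GGGCGG alone and 4930440C22Rik holds neither. In Gm20362 and Gm15908 the TATAAA match is on the opposite strand, in the upstream part of the window. GGGCGG itself contains a CpG, so its share is not separate from the CpG counts. A match of letters is not a binding site.

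Locus numbers in the table rise along the chromosomes, in 27596 of 27618 adjacent pairs (99.9%), and numbers are skipped. Of 2120 isolated loci with a number that could be placed between rising neighbours, 815 (38.4%, 36.4 to 40.6%) had no number absent on either side, against 56.9% (56.3 to 57.5%) of 25436 remaining loci. Isolated loci have wider flanks, a median of 435.6 kb in sum against 91.2 kb. Per 100 kb of flank, 0.396 numbers were absent beside isolated loci and 0.873 beside remaining loci. The rule selects on the width of the flanks, which is the divisor here, so these rates are a description. Of the 5 loci over 1 Mb from any other, NONMMUG009115 and NONMMUG016705 had 0 absent numbers beside them, NONMMUG026502 had 1, NONMMUG038090 had 3 and NONMMUG032531 had 4. The loci carry NONCODE numbers, and which NONCODE entries the skipped numbers are, and where they lie, is not known. Their part in the isolation of the 1305 other loci was not tested.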

How the data were processed

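The 20 libraries were grouped by their titles. The file used is an exon table in GTF format, deposited by the authors with start and end positions, strand and identifiers, and with no score or count. Its name labels the loci as mouse NONCODE lincRNA, so they are not shown to be an assembly from these libraries. The positions are on mm9, and TopHat2 2.0.8 and Cufflinks 2.1.1 are among the tools, per the submitters' processing notes. The selection of loci was not given in the sources used here. Depth is unknown. There were 0 columns of unmatched samples.

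A locus is the span of its exons. Members and lists were chosen with earlier results of these data known. Named loci are the 3 highest by distance, transcript length, transcripts and exons, the 3 nearest the limit on each side, and GENCODE matches in or nearest to a list gene or with a symbol of their own. Per chromosome, shares and log2 medians were compared, the differences were tested by 100000 sign flips over 19 chromosomes, and p-values were adjusted over 9 differences. The flips treat chromosomes as exchangeable units. Matching to GENCODE M21 (GRCm38) used exact runs of intron, exon and intron lengths on the same chromosome and strand. With strands swapped, 0 isolated and 3 remaining loci matched. Promoters are RefSeq's, on GRCm38.p6, and builds were never converted. Procedures were tested on simulated data. Alternatives changed the distance and span limits, the neighbours, remaining loci, chromosomes and locus, transcript and intron definitions. The tools were numpy 2.4.6 and scipy 1.17.1 for tests, pandas 2.3.3 for tables and matplotlib 3.10.9 for figures, in Python 3.11.15.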

Additional observations from a re-analysis of the deposited data

How the results depend on the processing

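The lower share of loci with more than 1 transcript and the shorter transcripts of isolated loci kept their direction under every alternative run, though with same-strand neighbours only the first shrank to -1.34 points. They were no longer past the threshold when isolated meant more than 200 kb (532 loci). The difference in the share was then -4.24 points. The log2 differences in length were -0.16 for all, -0.19 for spliced and -0.13 for single-exon loci. The spliced length difference was also short of it among loci of at most 10 kb span (-0.14). Beyond 200 kb the GENCODE match share fell further, to -9.37 points, past the threshold (permutation test, adjusted p = 0.0486). With isolated meaning more than 50 kb (5748 loci), the 3-exon difference turned to -0.99 points and the intron difference to -0.091. With neighbours on the same strand only (5792 loci), the spliced share difference turned to 7.44 points (adjusted p = 3.6e-05, permutation test), the 3-exon difference rose to 3.37 and the match difference turned to 2.86. The match difference also turned, to 0.42 points, when gaps under 30 nt were not introns.

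The 3-exon difference passed the threshold with no span limit (2.92), with remaining loci of at most 100 kb span (2.85) or 10 to 100 kb from another (4.88), with the longest transcript only (3.86), with chromosome X (2.13) and with overlapping spans merged (2.30). The intron difference passed it in the same settings except chromosome X (0.41, 0.37, 0.56, 0.49 and 0.35) and with gaps under 30 nt left out (0.34). Against loci at 10 to 100 kb the spliced share difference turned to 3.15. The cause of these changes was not tested. Leaving out each chromosome in turn, the 3-exon difference ranged from 1.75 to 2.53 (adjusted p = 0.024 to 0.124, permutation test; past the threshold without chromosome 1, 7, 15 or 19) and the intron difference from 0.25 to 0.38 (0.0368 to 0.196; past it without chromosome 13). Of the recomputed values, 251 kept their direction and their side of the threshold or, where no test was made, moved by less than 1 SD (for the number of loci, by less than 1.5 times).

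No paired analysis was possible because the table holds no value per library. Loci of 1 or 2 exons have no GENCODE match, and isolation depends on which loci the table holds. An interval over loci covers counting error only, and 532 loci beyond 200 kb leave few per chromosome. Lengths describe models in the table and say nothing of RNA abundance.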

Other observations

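Of the 58 isolated matches with a Rik name, which records the cDNA library a clone came from, 40 (69.0%) carried a prefix of the adult or developing testis libraries, against 406 of 754 (53.8%) remaining matches. Among all loci matched to 1 gene the shares were 18.8% and 16.6%. The prefixes were chosen after the names were seen, and the shares were not tested. On chromosome X, which the choice of loci leaves out, 207 of 1507 loci met the same limits.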
